A study of Mus musculus with 4 samples.

Results

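The Hox cluster genes of the mouse urogenital sinus (UGS) were read from the deposited expression table as every row whose symbol is Hox, a cluster letter from a to d and a paralogue number. This gave 39 genes of 25819 rows, 11 in HoxA, 10 in HoxB, 9 in HoxC and 9 in HoxD. RNA-Seq had been made from whole UGS of male embryos on a B6C3-F1 hybrid background, either wild type or homozygous for the null allele *Tbx18Gfp*, a GFP knock-in at the *Tbx18* locus. Both genotypes were taken at E16.5 and at E18.5, and each of the 4 groups was 1 library of RNA pooled from 3 embryos. Values for the 4 libraries are given throughout in the order E16.5 wild type, E16.5 mutant, E18.5 wild type, E18.5 mutant. The paper reports RT-qPCR of several genes on individual UGS samples, whose values were not used here. With 1 library per group these libraries have no replicates, and no test, standard deviation or p-value could be given. Differences are therefore ratios of FPKM, read numbers scaled to the length of the transcript and the depth of the library. FPKM is per length, so levels can be set side by side between genes, but only roughly. For some genes the length behind the FPKM was shorter than the annotated transcript. Whole UGS holds epithelium, mesenchyme and muscle, so fewer cells of a type and less RNA per cell cannot be told apart.

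Hox genes encode homeodomain transcription factors that give cells their position along the body axis. Genes with the same number in different clusters are paralogues, and their order along each chromosome follows the order in which they are used from head to tail. The posterior genes, groups 9 to 13, act in the limb, gut, genital tubercle and urogenital tract, and *Hoxa13* and *Hoxd13* are known for their part in the development of the prostate and external genitalia. HOX proteins bind DNA together with cofactors of the TALE class, the PBX, MEIS and PKNOX proteins, and Polycomb and Trithorax complexes keep the clusters silent or active.

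In the deposited table HoxA lies on chromosome 6 from 52105366 to 52210874, HoxB on chromosome 11 from 96055675 to 96229567, HoxC on chromosome 15 from 102751562 to 102867283 and HoxD on chromosome 2 from 74506367 to 74603199. These positions are of a genome build that is not given in the sources used here, and they differ from GRCm38, where *Hoxd13* starts at 74668225 and not at 74506367. Promoters were therefore taken from RefSeq on GRCm38.p6 as the 250 bases before the start, with 24 promoters of 22 Hox genes found. They are shown for *Hoxd13*, the Hox gene with the highest FPKM in a library, for *Hoxa11* and *Hoxb8*, the members at least 2-fold different between genotypes at E18.5 with at least 100 reads in every library, and for *Hoxd9*, the single one of the 22 with a T-box core. Capitals mark matches on either strand to any of 4 motifs. The core of a T-box site was searched as GGTGTGA. The core shared by HOX13 and CDX factors was searched as TTTATNG. The paired site of HOX and PBX proteins was searched as TGATNNAT. The TATA box was searched as TATAAA.
*Hoxd13*, chr2:74667975-74668224, plus strand: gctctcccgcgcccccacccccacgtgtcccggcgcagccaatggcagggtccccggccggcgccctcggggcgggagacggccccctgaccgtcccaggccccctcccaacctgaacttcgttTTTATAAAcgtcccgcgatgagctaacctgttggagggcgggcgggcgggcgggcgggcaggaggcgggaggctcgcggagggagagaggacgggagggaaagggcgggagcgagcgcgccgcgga
*Hoxd9*, chr2:74697513-74697762, plus strand: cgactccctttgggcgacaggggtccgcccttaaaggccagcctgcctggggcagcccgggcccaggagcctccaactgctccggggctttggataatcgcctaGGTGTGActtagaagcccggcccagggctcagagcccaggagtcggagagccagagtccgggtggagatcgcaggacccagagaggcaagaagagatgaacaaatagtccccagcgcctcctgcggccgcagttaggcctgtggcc
*Hoxa11*, chr6:52245811-52246060, minus strand: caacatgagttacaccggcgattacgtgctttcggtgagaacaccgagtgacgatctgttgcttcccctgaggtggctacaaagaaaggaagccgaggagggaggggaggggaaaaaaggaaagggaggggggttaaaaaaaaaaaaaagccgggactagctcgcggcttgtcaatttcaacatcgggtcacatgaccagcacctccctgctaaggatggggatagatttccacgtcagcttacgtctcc
*Hoxb8*, chr11:96281655-96281904, plus strand: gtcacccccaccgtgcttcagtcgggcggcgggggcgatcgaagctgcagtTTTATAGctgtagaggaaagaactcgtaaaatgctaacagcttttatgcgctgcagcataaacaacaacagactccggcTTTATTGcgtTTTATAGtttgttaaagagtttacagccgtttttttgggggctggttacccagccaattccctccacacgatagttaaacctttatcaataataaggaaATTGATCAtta
GGTGTGA was present in 1 of the 24 Hox promoters and in 3.33% of 32851 mouse promoters of the same length. TTTATNG was present in 2 (*Hoxd4* and *Hoxb8*, with 3 matches in the latter) against 9.81% of all promoters, and TGATNNAT in 4 (*Hoxd11*, *Hoxa2*, *Hoxb8* and *Hoxb1*) against 7.68%. TATAAA was present in 4 (*Hoxd13*, *Hoxd4*, *Hoxa10* and *Hoxb8*) against 12.4%. In *Hoxd13* its 2 matches lie on opposite strands and overlap, and in *Hoxb8* its 2 matches lie within TTTATNG matches. The median GC content was 58.6% for the Hox promoters and 52.4% for all promoters.

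Apart from *Mir615* in HoxC, the microRNA genes inside the clusters fall into families by their seed, bases 2 to 8 of the mature RNA, shown in capitals in the RefSeq sequences.
miR-10a-5p (HoxB): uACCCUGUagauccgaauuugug
miR-10b-5p (HoxD): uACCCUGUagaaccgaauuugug
miR-196a-5p (HoxB and HoxC): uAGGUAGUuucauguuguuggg
miR-196b-5p (HoxA): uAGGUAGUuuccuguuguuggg
The miR-10 pair share one seed and the miR-196 pair share another. Libraries of polyadenylated RNA do not measure mature microRNAs. The 110-base row of *Mir10a* was listed at 65.5 and 75.2 FPKM in E16.5 wild type and *Tbx18Gfp/Gfp* and at 0 in both E18.5 libraries. The ratio of these values is the inverse of the ratio of the depths, so both rest on the same number of reads, which could not be recovered for a row this short. The rows of the other microRNA genes were listed at 0 in all 4 libraries.

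The libraries held about 64000000, 55700000, 29100000 and 52400000 mapped reads, estimated from the FPKM of single reads on 12 to 22 single-exon olfactory receptor rows per library. The E18.5 wild type library was the shallowest and stood apart: the log2 ratio of mutant to wild type had a median of 0.01 for E16.5 but of 0.29 for E18.5 over all genes that reached 1 FPKM in both libraries compared, and its rank correlation with transcript GC content over those genes was 0.02 and 0.44. Values at E18.5 are therefore also given relative to the all-gene median. The row of *Tbx18* itself stood at 3.47, 2.50, 3.16 and 2.93 FPKM, and a value of this kind cannot tell an intact transcript from one made at the knock-in locus. Markers of UGS were present, with *Shh* of the epithelium at 15.02 to 20.2 FPKM and *Pdgfra* of the mesenchyme at 62.2 to 71.3. The hindgut factors *Cdx1* and *Cdx2* were listed at or near 0 in every library. Of the 5 hindgut markers read, 1 passed 1 FPKM, *Lgals4*, at 3.32, 3.97, 2.28 and 2.15 FPKM. All 5 kidney nephron markers stayed under 1 FPKM.

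For each Hox gene the number of reads was recovered by looking for a transcript length that gave whole reads in all 4 libraries within 0.03 reads. This was found for 31 of 39 members, and the reads of the other 8 were estimated from the annotated length. Of the 39 members, 27 rested on at least 100 reads in every library. *Hoxa6*, *Hoxb1*, *Hoxc12* and *Hoxd1* had at most 3 reads in at least 1 library. Of the 39, 29 reached 1 FPKM in every library, 3 more in some and 7 in none, among them *Hoxb1*, *Hoxc12*, *Hoxc13* and *Hoxd1*.

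**Figure D1:**
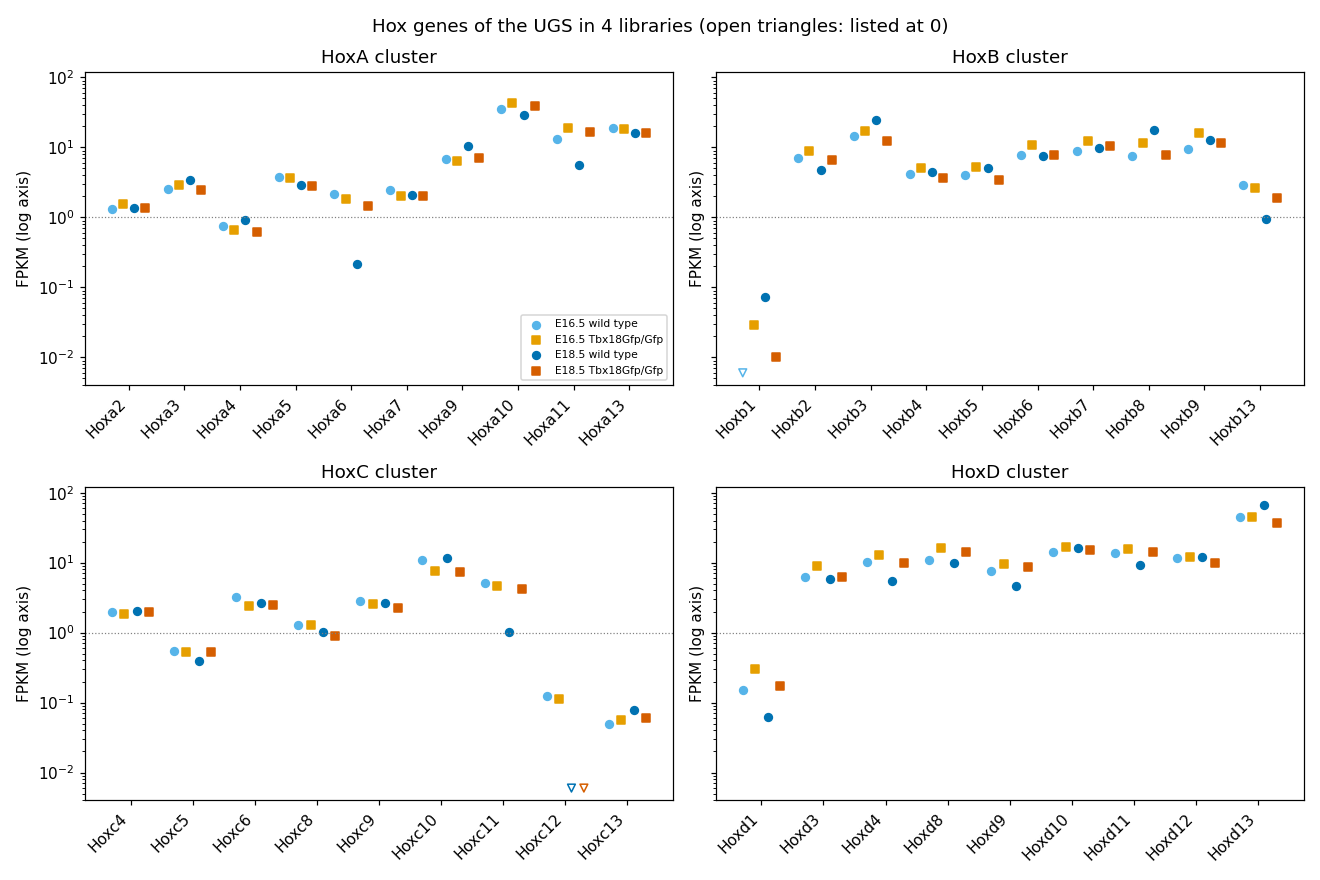
FPKM on a log axis of 38 Hox genes in each of the 4 libraries, in paralogue order within a cluster, with 1 point per pooled library and open triangles for values listed at 0. *Hoxd13* and *Hoxa10* are the highest members, and the E18.5 wild type points of *Hoxa6* (0.213 FPKM) and *Hoxc11* (1.03 FPKM) lie far below the other 3.

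Posterior genes made up most of the Hox expression. Groups 9 to 13 held 66.1%, 63.1%, 64.1% and 65.6% of the summed Hox FPKM in the 4 libraries. HoxD carried the largest share of the 4 clusters, between 39.3% and 41.9%, and HoxC the smallest, between 6.07% and 8.68%. HoxA held 23.2% to 30.8% and HoxB 22.2% to 27.98%. The mean paralogue number weighted by FPKM was between 9.70 and 9.97 in HoxA, 8.69 and 8.95 in HoxC and 9.93 and 11.05 in HoxD, but between 5.82 and 5.99 in HoxB. HoxB has no members of groups 10 to 12, and most of its FPKM lay in *Hoxb2* to *Hoxb9*. The summed Hox FPKM was 300.0, 348.1, 311.7 and 289.2 in the 4 libraries, at most 0.083% of all FPKM.

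*Hoxd13*, at the 5′ end of HoxD on chromosome 2 from 74506367 to 74509655, had 44.3, 44.8, 67.4 and 36.8 FPKM. The E18.5 wild type library was the highest of the 4 and the other 3 lay within 1.5-fold of each other. *Hoxa13*, its paralogue at the end of HoxA (chromosome 6, 52208852 to 52210874), had 19.1, 18.2, 15.8 and 15.9 FPKM and so varied little. *Hoxb13*, which is known as a marker of the posterior gut and prostate, was lower, at 2.90, 2.61, 0.940 and 1.91 FPKM. *Hoxc13* had 5 to 7 reads in each library. The 4 paralogues of group 13 thus ran from the highest Hox gene in 3 of the 4 libraries, all but E18.5 mutant, to one at the edge of detection.

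Group 12 has 2 members. *Hoxd12* had 11.8, 12.2, 11.9 and 9.79 FPKM, while *Hoxc12* had 5, 4, 0 and 0 reads, where 0 reads in a library allow up to 3. In group 11, *Hoxd11* had 13.9, 15.6, 9.25 and 14.1 FPKM, *Hoxa11* 13.4, 19.2, 5.53 and 16.51 FPKM, and *Hoxc11* 5.15, 4.66, 1.03 and 4.22 FPKM. All 3 genes of group 11, which as a group act in the kidney and the reproductive tract, were lowest in E18.5 wild type, and the summed FPKM of the group there was 15.8 against 32.4 to 39.5 in the other 3 libraries. That library was the lowest of the 4 for 63.7% of all rows.

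In group 10, *Hoxa10*, needed for the uterus, the seminal vesicle and the descent of the testis, had 35.6, 43.4, 29.2 and 38.7 FPKM and was the highest member of HoxA. *Hoxd10* had 14.3, 16.6, 16.1 and 15.03 FPKM. *Hoxc10* was the highest member of HoxC, and its wild type libraries, 10.9 FPKM at E16.5 and 11.8 at E18.5, were both above its mutant libraries, 7.59 and 7.39. In group 9, *Hoxb9* had 9.58, 15.99, 12.6 and 11.5 FPKM, *Hoxa9* 6.90, 6.48, 10.6 and 7.07, *Hoxd9* 7.50, 9.55, 4.67 and 8.53, and *Hoxc9* 2.80, 2.60, 2.65 and 2.23. No member of group 9 had the same order of libraries as another.

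**Figure D2:**
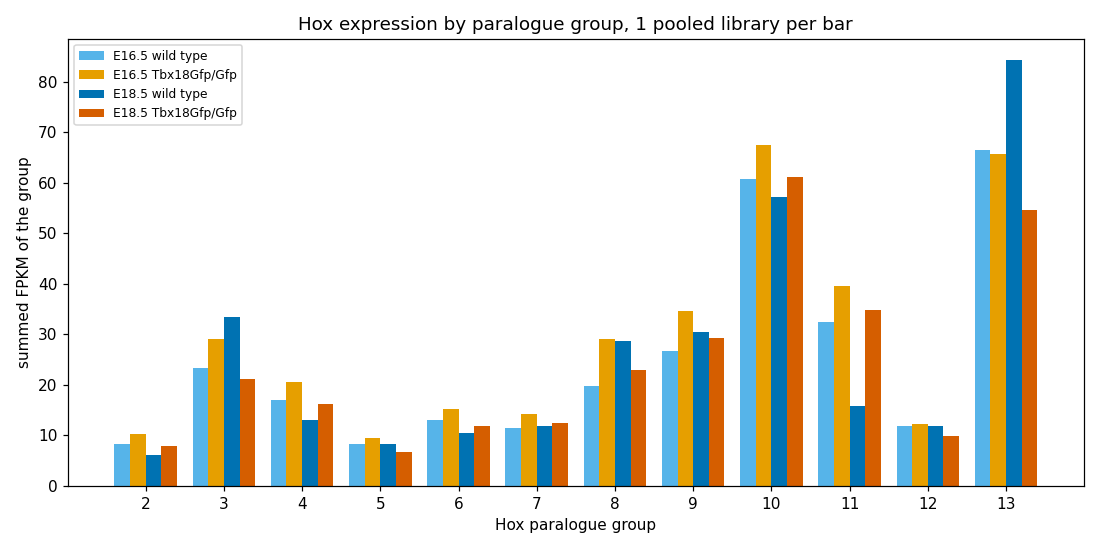
Summed FPKM of Hox paralogue groups 2 to 13, 1 bar per pooled library and no error because there is 1 library per group. Groups 10 and 13 are the highest, and group 11 is lowest in E18.5 wild type (15.8 FPKM) while group 13 is highest there (84.3 FPKM). Within group 13, *Hoxd13* is highest in that library (67.4 FPKM), but *Hoxa13* (15.8 FPKM) and *Hoxb13* (0.940 FPKM) are lowest.

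The highest anterior gene was *Hoxb3*, the highest member of HoxB, with 14.5, 17.3, 24.3 and 12.4 FPKM. Its neighbour *Hoxb4*, a regulator of blood stem cells among other roles, had 4.13, 5.15, 4.46 and 3.67 FPKM. Among the middle groups *Hoxd8* had 10.9, 15.998, 9.76 and 14.2 FPKM, *Hoxd4* 10.2, 12.9, 5.55 and 9.98, *Hoxb7* 8.95, 12.3, 9.73 and 10.4, and *Hoxb6* 7.70, 10.9, 7.52 and 7.85. *Hoxb8*, on chromosome 11 from 96143219 to 96146639, had 7.56, 11.7, 17.8 and 7.79 FPKM. It was the single Hox gene of groups 4 to 8 whose E18.5 wild type value exceeded the other 3 by more than 1.5-fold. Members of the middle groups outside HoxB and HoxD were low: *Hoxa5*, *Hoxa6* and *Hoxa7* did not pass 3.76 FPKM and *Hoxc4*, *Hoxc6* and *Hoxc8* did not pass 3.20. In group 1, whose genes act in the hindbrain, *Hoxb1* had 0, 3, 4 and 1 reads in the 4 libraries, and *Hoxd1* had 16, 28, 3 and 15.

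At E16.5 no Hox gene that passed 1 FPKM differed by 2-fold between the genotypes. Of the 39 members, 32 had at least 1 FPKM in either E16.5 library. None was 2-fold higher or 2-fold lower in the mutant, where 0.481% of the 14761 rows tested were 2-fold higher and 1.17% were 2-fold lower. At 1.5-fold, *Hoxb8* (log2 ratio 0.63) and *Hoxb9* (0.74) were higher, 6.25% of the 32 against 1.44% of all rows, and none was lower, against 2.72% of all rows. The median log2 ratio, with 0.1 FPKM added to each value, was 0.19 over the 32 members and 0.01 over all rows tested. For the members it was 0.087 with the FPKM sums of the libraries made equal and 0.31 at a minimum of 5 FPKM. Below the filter, *Hoxd1* had 16 and 28 reads, a ratio of 2.01 with a 95% counting interval of 1.05 to 3.98. That interval covers counting error only.

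The 2 chromosomal neighbours *Hoxb8* and *Hoxb9* did not stand alone. All 8 members from *Hoxb2* to *Hoxb9* were higher in the E16.5 mutant library, with log2 ratios from 0.25 for *Hoxb3* to 0.74 for *Hoxb9*, and *Hoxb13*, which lies apart at the end of the cluster, was at -0.15. All 8 HoxD members that passed the filter were higher as well, from 0.02 for *Hoxd13* and 0.06 for *Hoxd12* to 0.55 for *Hoxd8*, beside 54.2% of all rows. With the FPKM sums of the libraries made equal 6 of the 8 stayed higher, with *Hoxd12* at -0.051 and *Hoxd13* at -0.089, and *Hoxd13* was also at -0.011 when the trend of the ratios with transcript length and GC was subtracted. HoxC went the other way, with 5 of 6 members lower and *Hoxc10* the lowest of all Hox genes at -0.52 (10.9 against 7.59 FPKM). In HoxA, 4 members were higher and 5 lower, with *Hoxa11* the highest (0.53) and *Hoxa7* the lowest (-0.29). Members of a cluster lie side by side and are not independent of each other. The equal sums changed the direction of 3 of the 32 members.

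**Figure D3:**
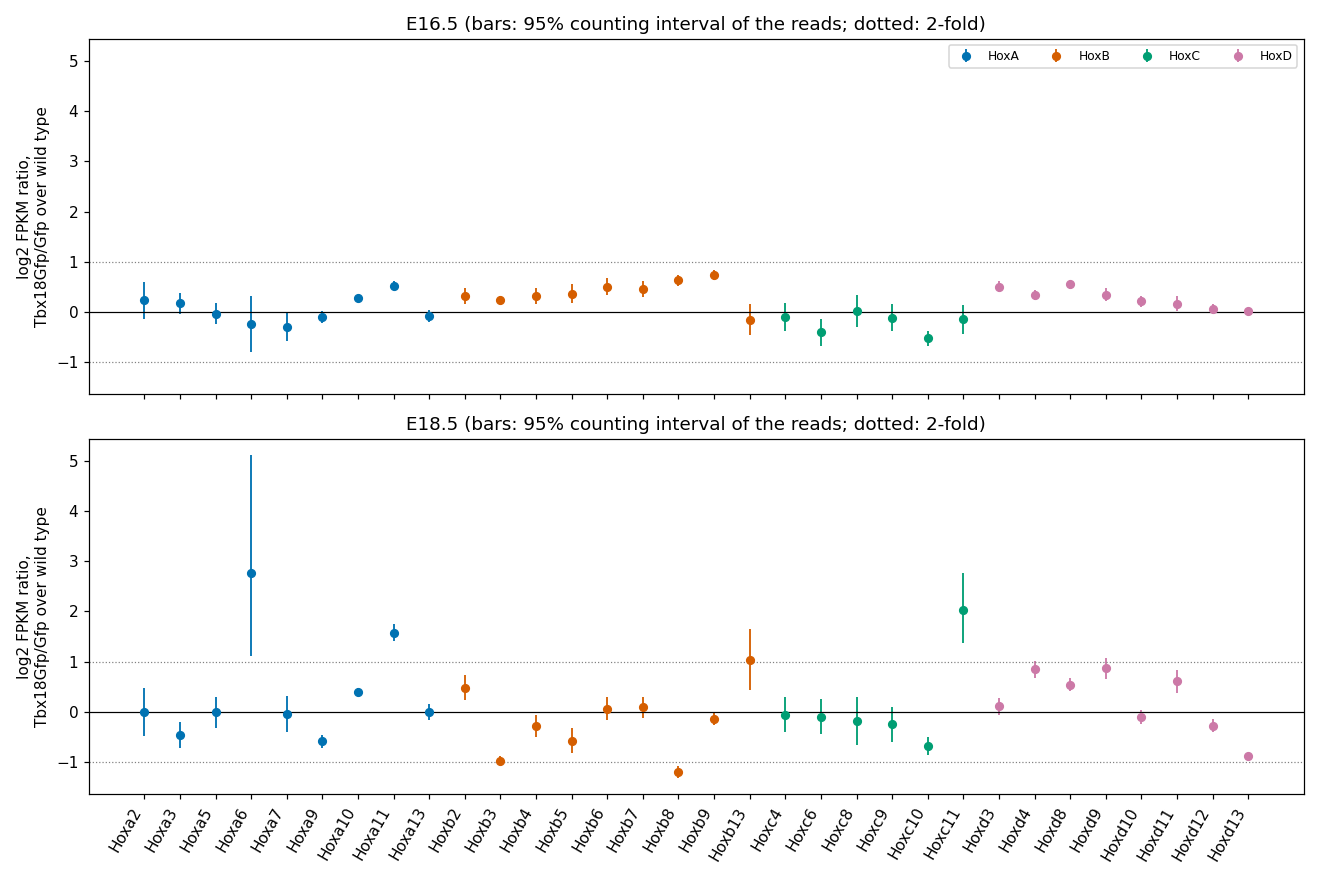
The log2 ratio of mutant to wild type FPKM for the 32 Hox genes with at least 1 FPKM, at E16.5 above and E18.5 below, with bars for the 95% counting interval of the reads (exact binomial), which covers counting error only. At E16.5 no point passes 2-fold; at E18.5 *Hoxa6*, *Hoxc11*, *Hoxa11* and *Hoxb13* lie above 2-fold and *Hoxb8* below.

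At E18.5, 4 of 32 members were at least 2-fold higher in the mutant library, 12.5% of the members against 15.1% of the 14733 rows tested. A share near that of all rows is no result about Hox genes. One member was at least 2-fold lower, 3.12% of the members against 2.89% of all rows. At 1.5-fold, 7 were higher and 4 lower, 21.9% and 12.5% of the members against 33.2% and 7.6% of all rows. The median log2 ratio of the 32 members was -0.03, against 0.30 for all rows tested, so that relative to the all-gene median of 0.29 it was -0.32. By cluster, 4 members were higher and 5 lower in HoxA, 4 and 5 in HoxB, 1 and 5 in HoxC and 5 and 3 in HoxD. Over all rows, 69.5% were higher. The 5 lower in HoxB, *Hoxb3*, *Hoxb4*, *Hoxb5*, *Hoxb8* and *Hoxb9*, were higher in the mutant at E16.5, as were the 3 lower in HoxD.

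*Hoxa11*, on chromosome 6 from 52192105 to 52195766, had 5.53 FPKM in E18.5 wild type and 16.51 in E18.5 mutant, on 326 and 1757 reads, a ratio of 2.99 with a 95% counting interval of 2.65 to 3.37. Its log2 ratio was 1.58, and 1.29 relative to the all-gene median. The row of its antisense neighbour *Hoxa11as*, which shares 525 bases with it, had 27.8, 34.7, 16.6 and 30.0 FPKM and was also lowest in E18.5 wild type. The libraries were stranded, but the alignment used default options, under which Tophat takes reads as unstranded, and reads of the shared bases cannot be assigned.

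*Hoxc11*, on chromosome 15 from 102784957 to 102787132, had 1.03 FPKM in E18.5 wild type and 4.22 in the mutant, on 21 and 155 reads, a ratio of 4.09 with an interval of 2.58 to 6.79. *Hoxa6*, on chromosome 6 from 52156364 to 52158623, had 2.13, 1.81, 0.213 and 1.46 FPKM on 66, 49, 3 and 37 reads. Its ratio at E18.5 was 6.83 with an interval of 2.16 to 34.6, set by the 3 reads of the wild type library. Its row also lies inside the span of the *Hoxa3* row, and reads could be split between them. *Hoxb13*, on chromosome 11 from 96055675 to 96057913, had a ratio of 2.03 (1.35 to 3.15) on 30 and 110 reads. Relative to the all-gene median its log2 ratio was 0.73, below 2-fold.

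The length of transcript to which the reads were assigned differed between these genes. The recovered lengths of *Hoxa6*, *Hoxc11* and *Hoxb13* were 699, 915 and 1313 bases, shorter by 175, 1106 and 893 bases than the annotated transcripts used for the GC content, while that of *Hoxa11*, 2244 bases, was shorter by 43. Of the 31 members with a recovered length 20 lay within 100 bases of the annotated length and 8 were shorter by at least 100 bases. The other 5 of these were *Hoxd11* (1011 bases, E18.5 log2 ratio 0.61), *Hoxc5* (0.42), *Hoxc9* (-0.25), *Hoxc10* (-0.67) and *Hoxc12* (no ratio). The part of the shorter transcript models in the E18.5 ratios was not tested.

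*Hoxb8* was the member lower by 2-fold, at 17.8 FPKM in E18.5 wild type and 7.79 in the mutant, on about 1255 and 989 reads. Wild type was 2.29 times the mutant, with an interval of 2.11 to 2.49, a log2 ratio of -1.19 and of -1.48 relative to the all-gene median. *Hoxb3* followed with 24.3 and 12.4 FPKM (log2 ratio -0.97), *Hoxd13* with 67.4 and 36.8 FPKM (-0.87) and *Hoxc10* with 11.8 and 7.39 FPKM (-0.67). For *Hoxd13* this difference rested on about 4445 and 4383 reads. Relative to the all-gene median 3 members, *Hoxb3*, *Hoxb8* and *Hoxd13*, were 2-fold lower against 5.42% of all rows, and 3, *Hoxa11*, *Hoxa6* and *Hoxc11*, were 2-fold higher against 8.19%. *Hoxc10* was lower in the mutant library at both stages, with log2 ratios of -0.52 and -0.67. By smaller ratios at E16.5, *Hoxa5*, *Hoxa7*, *Hoxa9*, *Hoxc4*, *Hoxc6* and *Hoxc9* were also lower at both stages.

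Transcript GC content moved with the E18.5 ratio over all genes. The median GC content was 53.7% over all 39 Hox members, those under 1 FPKM included. For all rows at 1 FPKM or more in any library the median was 50.4%. Across the 32 members the rank correlation of the E18.5 ratio with GC content was 0.34 and with transcript length -0.25, as a description across genes that share libraries and clusters. After a trend on length and then GC content was subtracted, 3 members were 2-fold higher, *Hoxa11* (log2 ratio 1.04), *Hoxa6* (1.51) and *Hoxc11* (1.28), against 3.06% of all rows. With the same trend subtracted, 6 were 2-fold lower against 4.93% of all rows: *Hoxb8* (-1.70), *Hoxb3* (-1.46), *Hoxa13* (-1.20), *Hoxb5* (-1.19), *Hoxd13* (-1.11) and *Hoxc10* (-1.10). *Hoxa13* had 15.8 and 15.9 FPKM in the E18.5 libraries and the highest GC content of the members, 68.1%, so that its value is almost wholly the subtracted trend.

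**Figure D4:**
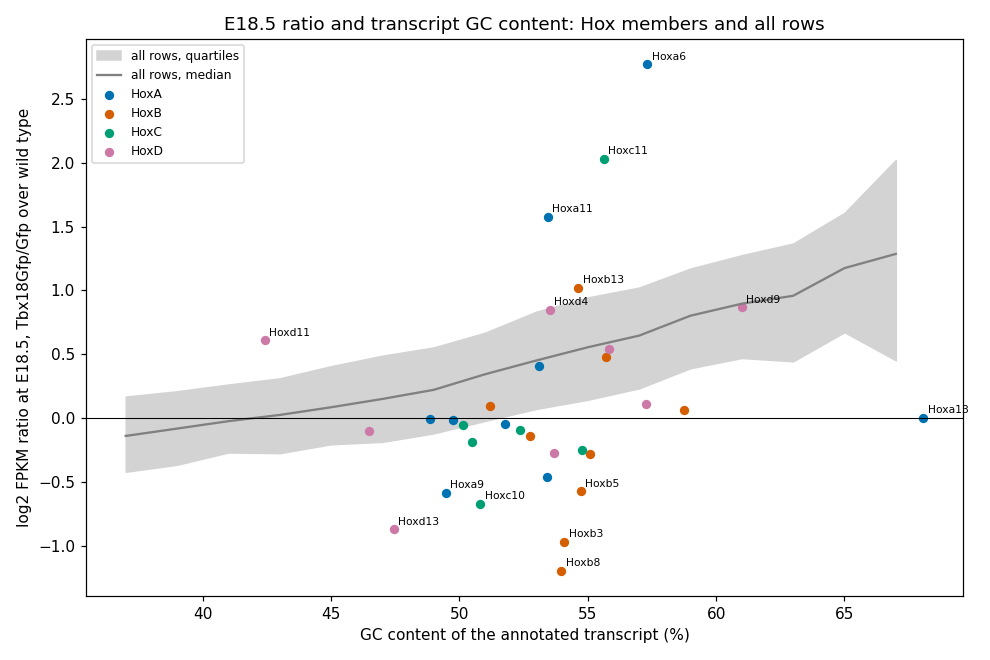
The log2 ratio of mutant to wild type FPKM at E18.5 against the GC content of the annotated transcript for 32 Hox genes, over the median and quartiles of all rows in GC bins of 2 percentage points. The all-row median climbs from -0.14 at 37% to 1.29 at 67%; *Hoxa6*, *Hoxc11* and *Hoxa11* lie above it and *Hoxb8*, *Hoxb3*, *Hoxd13* and *Hoxa13* below.

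The comparison of stages within a genotype used the same 4 libraries and so is not independent of the genotype comparisons. In the mutant, none of the 32 members was 2-fold higher at E18.5 than at E16.5 (1.35% of all rows) and none was 2-fold lower (0.571%). Of these members 29 (90.6%) had lower FPKM at E18.5, as did 64.7% of all rows, with a median log2 ratio of -0.24 against -0.06 over all rows, and the furthest were *Hoxb5* (5.25 to 3.41 FPKM) and *Hoxb8* (11.7 to 7.79 FPKM). In wild type 1 member, *Hoxb8*, was 2-fold higher at E18.5 (7.56 to 17.8 FPKM, 2.7% of all rows) and 4 were 2-fold lower, *Hoxa6*, *Hoxc11*, *Hoxb13* and *Hoxa11*, 12.5% of the members against 16.8% of all rows. This comparison and the genotype comparison at E18.5 share the E18.5 wild type library, so their values for these genes do not stand as separate evidence.

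Set against the other 3 libraries, E18.5 wild type was the lowest for 13 of 32 members, 40.6% against 63.7% of all rows, and the highest for 7, 21.9% against 21.9% of all rows. The 7 were *Hoxa3*, *Hoxa9*, *Hoxb3*, *Hoxb8*, *Hoxc4*, *Hoxc10* and *Hoxd13*. Without that library the Hox genes varied little: across the other 3 libraries 28 of 32 members (87.5%) stayed within 1.5-fold, near the 90.7% of all rows, and the exceptions, *Hoxb5*, *Hoxb8*, *Hoxb9* and *Hoxb13*, were all in HoxB.

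Rows next to the Hox genes were read for comparison. Inside the clusters 17 rows were not Hox genes, and 8 of them passed 1 FPKM at E16.5 with 0 past 2-fold. At E18.5, 7 passed and 2 were 2-fold higher in the mutant, *Gm53* of HoxB (3.16 and 7.77 FPKM) and *LOC100504068* of HoxA (0.895 and 1.797 FPKM). Of the 24 rows nearest outside, 16 passed, and 5 were 2-fold higher at E18.5. Beside both sets, 15.1% of all rows tested were 2-fold higher at E18.5. At E16.5, 0.481% of all rows were 2-fold higher and 1.17% lower. One of the 5 outside rows was *Evx1*, the homeobox gene beyond *Hoxa13*, with 5.61, 5.12, 1.27 and 4.02 FPKM. It was lowest in E18.5 wild type, as were *Hoxa11* and 63.7% of all rows. *Evx2*, beyond *Hoxd13*, had 1.98, 1.91, 1.05 and 1.43 FPKM.

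The cofactors were well expressed. All 9 TALE genes passed 1 FPKM, with *Meis2* at 40.9 to 66.3 FPKM and *Meis1* at 35.3 to 38.6. None was 2-fold different at E16.5 (median log2 ratio 0.00), and at E18.5 1 was 2-fold higher in the mutant, *Pknox1* (5.46 and 11.5 FPKM), with a median of -0.08 for the list. Of 19 Polycomb genes 3 were 2-fold higher at E18.5, *Ring1*, *Cbx6* and *Cbx8*, and of 10 Trithorax genes none was, with medians of 0.23 and 0.14 beside 0.30 for all rows. At E16.5 neither the Polycomb nor the Trithorax list had a member past 2-fold. Over all rows tested, 15.1% were 2-fold higher and 2.89% 2-fold lower at E18.5, and 0.481% and 1.17% at E16.5. These are the shares to set beside the 2-fold counts of every list in this paragraph. Of 13 genes tied to HOXA13 or HOXD13 in other organs, 11 passed 1 FPKM at E18.5 and 0 passed 2-fold in either direction. Of these 10 were lower in the mutant library, where 30.5% of all rows were lower, with a median log2 ratio of -0.35 beside 0.30. At E16.5, 4 of the 11 were higher and 7 lower, with a median of -0.07. The E18.5 values rest on the wild type library that stood apart, and a link to the Hox genes was not tested. Of 8 upstream regulators and cluster-linked genes, *Cdx1*, *Cdx2*, *Cdx4* and *Gbx2* were at or near 0, and of the 4 that passed 1 FPKM only *Evx1* was past 2-fold at E18.5. The growth factor gene *Gdf11*, which acts on the onset of posterior Hox expression, had 5.29 to 7.59 FPKM.

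Summed markers of muscle differed between the groups. The summed FPKM of 6 mesenchyme and smooth muscle markers was 1433, 969, 1579 and 3510, and that of 4 skeletal muscle markers was 304.5, 110.8, 151.2 and 534.0. In the first list *Vim* (396.7, 387.0, 360.0 and 422.4 FPKM) and *Pdgfra* (70.1, 71.3, 62.2 and 67.8) varied little. All 4 skeletal muscle markers were lower in the mutant at E16.5. At E18.5 *Acta1* and *Ckm* were higher there, *Myod1* was near level (3.34 and 3.63 FPKM) and *Myog* was lower (17.5 and 12.8). The sum of 7 epithelial markers was 398.5, 315.5, 377.6 and 472.4. At E18.5, 3 of the 7 were higher in the mutant library, *Krt5*, *Krt8* and *Upk3a*. The other 4, *Shh*, *Foxa1*, *Trp63* and *Upk1b*, were lower, and the median log2 ratio over the 7 was -0.04. The sum of 3 Wolffian or seminal duct markers was 53.9, 53.4, 22.0 and 50.6. Within the duct list *Wfdc2*, which made up most of the sum, had 49.0, 44.8, 14.7 and 45.3 FPKM and was lower in the mutant at E16.5 and higher at E18.5. *Pax2*, with 1.79, 3.55, 2.72 and 2.01 FPKM, and *Pax8*, with 3.12, 4.99, 4.60 and 3.28 FPKM, went the opposite way at both stages. The part of these markers in the Hox ratios was not tested.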

How the data were processed

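Whole urogenital sinuses of male wild type and *Tbx18Gfp/Gfp* embryos were sequenced at E16.5 and E18.5, with 1 library of RNA pooled from 3 embryos per group. Stranded mRNA libraries gave single-end reads that the authors aligned with Tophat 2.1.0 at default options. The authors deposited FPKM from Cufflinks 2.2.1 for 25819 rows, and low values and zeros are in the table. The submitters' processing notes also name CASAVA 1.8.2 and Trimmomatic 0.30. The genome build, the gene annotation and the use of strand in counting are not given in the sources used here. Scaling between libraries beyond FPKM is not stated.

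The members are rows whose symbol matches the Hox cluster pattern. The members and the lists were chosen with earlier results of these data known. Genes named with values are members of groups 9 to 13 with at least 1 FPKM, members with at least 10 FPKM in any library, members at least 2-fold different between genotypes, and the highest and lowest member of each cluster, and other names were chosen after their values were seen. Ratios of FPKM were taken for rows that reached 1 FPKM in 1 or both of the libraries compared, and log2 medians used a pseudocount of 0.1. Depth and reads per gene were estimated from the FPKM of single reads, and the 95% intervals (exact Clopper-Pearson) cover counting error only. Transcript length and GC content came from GENCODE, and a lowess trend (span 0.3) on both was subtracted as an alternative. The fold calls, the trend and the depth estimate were tested on simulated data. The recovery of reads and transcript lengths per gene was not. A planned comparison of HOX protein sequences was not made. Python 3.11.15, numpy 2.4.6, pandas 2.3.3, scipy 1.17.1 and statsmodels 0.14.6 were used. Some genes of the table are not reported here.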

Additional observations from a re-analysis of the deposited data

Results flagged for a closer look

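*Hoxb8* moved in opposite directions at the 2 stages. Its log2 ratio of mutant to wild type was 0.633 at E16.5 (7.56 and 11.7 FPKM) and -1.195 at E18.5 (17.8 and 7.79 FPKM). The difference between the stages was not tested, since each group is 1 pooled library. Of 14471 rows with at least 1 FPKM in either library at both stages, 143 (0.988%) differed by at least 1.5-fold in opposite directions. *Hoxb8* was the single Hox gene among them.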

How the results depend on the processing

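No paired analysis was possible because each group is 1 pooled library, and leaving out a library leaves a comparison without 1 of its groups. Counts of members at least 2-fold higher and lower were 0 and 0 (E16.5), 4 and 1 (E18.5), 1 and 4 (wild type, E18.5 over E16.5) and 0 and 0 (mutant, E18.5 over E16.5). Without the filter on low values, 2 were higher at E16.5, 5 higher and 2 lower at E18.5, 2 higher and 6 lower in wild type, and 2 lower in the mutant. With at least 5 FPKM, 1 was higher at E18.5 and 2 lower in wild type. At 1.5-fold, 2 were higher at E16.5, 7 higher and 4 lower at E18.5, 4 higher and 8 lower in wild type, and 2 lower in the mutant. Centring on the all-gene median gave 3 lower at E18.5 and 2 higher in wild type, equal FPKM sums 5 and 2, and the trend on length and GC content 6 and 3. Each of these scalings gave 3 higher at E18.5. In wild type 3 were lower on centring and with equal sums, and 2 with the trend. The median log2 ratio of members at E18.5, -0.03, became -0.32 on centring, -0.43 with equal sums, -0.53 with the trend and 0.032 at 5 FPKM. In wild type, -0.09 became 0.24, 0.20 and 0.49 under those scalings. The cause was not tested.

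Among members past 2-fold between genotypes none changed direction. At E18.5, 4, 5 and 8 of 32 members changed direction on centring, with equal sums and with the trend, and at E16.5 0, 3 and 2. The trend used annotated transcripts, which for *Hoxa6*, *Hoxc11*, *Hoxb13* and *Hoxd11* are longer than the lengths behind the FPKM. Depth limits *Hoxa6* most, with 3 reads in E18.5 wild type, and *Hoxb1*, *Hoxc12* and *Hoxc13* were read at too low a depth for a ratio. *Hoxd1* also had 3 reads in E18.5 wild type. Its ratio at E16.5 rests on 16 and 28 reads, under the 1 FPKM filter.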
